A study of Mus musculus with 24 samples.

Results

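The 10 reactive astrocyte genes followed here in the mouse cerebellum were Gfap, Vim, Serpina3n, Lcn2, Cd44, Osmr, Steap4, Aspg, S1pr3 and Timp1. They were chosen by name, and every probe whose transcript belongs to one of the 10 genes was taken, which gave 15 of the 56605 probes on the array. Of these, 12 probes of 9 genes stood well above background (a call made by the scanner's software) on each of the 2 arrays of some group, and only these could be tested. The untested probes were the sole probe of Steap4, 1 of 3 for Cd44 and 1 of 2 for Osmr. Total RNA of whole cerebellum from C57BL/6 mice at postnatal day 28 was measured on 24 single-colour arrays, in 12 groups of 2. Controls were Derlin-1flox/flox or Derlin-2flox/flox mice, and knockouts (KO) were such mice crossed with mice carrying Cre under the nestin promoter, which is active in neural progenitors and so reaches neurons, astrocytes and oligodendrocytes but not microglia. The Derlin-2 line had control and KO groups given water as vehicle or 200 mg/kg of 4-phenylbutyrate (4PBA), a chemical chaperone, into the peritoneum daily from day 14 to day 28. The Derlin-1 line had the same 4 groups in a series with numbered replicates. A second Derlin-1 series with lettered replicates had control and KO groups with 4PBA and control and KO groups whose labels name no vehicle, called untreated here. Vehicle and untreated arrays of the Derlin-1 line are together called arrays without 4PBA. Each series lay on 1 slide of its own, and every KO or 4PBA effect was taken within slides.

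Astrocytes answer injury, infection and neuronal disease by becoming reactive. They build up the intermediate filament proteins GFAP and vimentin and release protease inhibitors and lipocalins, and in the cerebellum both the Bergmann glia beside the Purkinje cells and the astrocytes of the granule layer can do so. Cytokines of the interleukin-6 family and oncostatin M are known inducers that act through JAK kinases and STAT3, and microglia can induce reactivity through tumour necrosis factor, interleukin-1 and C1q. In RNA of whole tissue, more cells of a type and more RNA per cell cannot be told apart.

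A level below is the log2 intensity of a probe minus the log2 of its array's 75th percentile, so 0 is that percentile and a difference of 1 is a doubling. Levels of different probes were not set against each other, since probes differ in how brightly they hybridise. The share of spots well above background was 57.7% to 68.4%. All 18 markers of homeostatic astrocytes and Bergmann glia were well above background on all 24 arrays. In 2 arrays a gene of the Derlin family went against the label, the targeted gene in 1 of them and a relative in the other. Derl2 (probe A_51_P498831) had levels of 1.40 to 1.58 on the 4 Derlin-2 control arrays, of 0.48, 0.18 and 0.24 on 3 Derlin-2 KO arrays, and of 1.72 on the array whose label is Derlin-2 KO vehicle 1. Derl1 (probe A_51_P504522) overlapped between Derlin-1 controls, at 0.76 to 1.22, and Derlin-1 KO arrays, at 0.14 to 0.94, so it did not check the labels. Derl3, a relative induced by stress of the endoplasmic reticulum, lay between -3.14 and -1.69 on the 8 Derlin-1 control arrays and between -0.63 and 0.37 on 7 Derlin-1 KO arrays, but at -2.27 on the array with the label Derlin-1 KO 4PBA b. Derl3 is not the targeted gene, so its level does not check the genotype of that array. Whether either label is wrong was not tested, and arrays that go against their labels means only these readings. The main comparisons of the 10 genes that include either array are also given without them. Derlin-1 KO 4PBA b also lay below the controls of its slide for Gfap, Aspg and Timp1. Leaving it out therefore raises KO effects with 4PBA by that choice. The labels do not say that the arrays of a group came from separate animals, so p-values measure only the spread between these samples.

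The promoters of the 4 genes that were both called and free of overlap between Derlin-1 KO and control arrays without 4PBA are shown, since these genes moved together. Each runs from 250 bases before the RefSeq transcription start, 5′ to 3′ on the gene's strand, in build GRCm38.p6; capitals mark TTCNNNGAA, the STAT site, where it was found. Gfap lies on the minus strand and is shown over chr11:102897194-102897450, Serpina3n on the plus strand at chr12:104406458-104406707, Aspg on the plus strand at chr12:112106433-112106682 and Timp1 on the plus strand at chrX:20869916-20870165.
Gfap: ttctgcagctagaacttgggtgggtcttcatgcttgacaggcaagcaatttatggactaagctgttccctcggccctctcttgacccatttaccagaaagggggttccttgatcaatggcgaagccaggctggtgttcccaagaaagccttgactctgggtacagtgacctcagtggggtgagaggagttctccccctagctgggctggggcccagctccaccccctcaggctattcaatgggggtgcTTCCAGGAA
Serpina3n: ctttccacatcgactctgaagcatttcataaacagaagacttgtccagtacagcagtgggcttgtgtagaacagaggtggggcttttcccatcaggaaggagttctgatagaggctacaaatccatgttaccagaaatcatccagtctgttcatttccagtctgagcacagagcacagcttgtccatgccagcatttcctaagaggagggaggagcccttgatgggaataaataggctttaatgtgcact
Aspg: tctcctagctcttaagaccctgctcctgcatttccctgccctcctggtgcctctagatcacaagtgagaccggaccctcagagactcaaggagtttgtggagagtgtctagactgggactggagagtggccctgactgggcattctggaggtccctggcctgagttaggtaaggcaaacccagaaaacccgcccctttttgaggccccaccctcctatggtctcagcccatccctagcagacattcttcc
Timp1: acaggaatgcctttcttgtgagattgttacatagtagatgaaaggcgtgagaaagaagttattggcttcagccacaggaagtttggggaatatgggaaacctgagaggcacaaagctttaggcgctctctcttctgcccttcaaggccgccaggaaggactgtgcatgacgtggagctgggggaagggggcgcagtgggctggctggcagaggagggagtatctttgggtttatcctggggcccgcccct
The site TTCCAGGAA in Gfap spans positions -2 to 6 around the start, so its sequence is shown to position 6. Windows of 300 bases, from 250 before to 50 after the start, were found for 10 of 10 genes and were searched on both strands for 4 motifs. TTCNNNGAA was in 2 of 10, Gfap and Steap4, and in 8.3% of all 32851 promoters of that length. TGANTCA, the AP-1 site, was in 1 of 10, Osmr, and in 7.81% of all. TGATGNAA, the C/EBP-ATF response element through which ATF4 acts, was in 0 of 10 and in 3.97% of all. TATAAA was in 2 of 10, Vim and Steap4, and in 13.6% of all. No match of one motif overlapped a match of another, and a match describes the letters only.

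**Figure D1:**
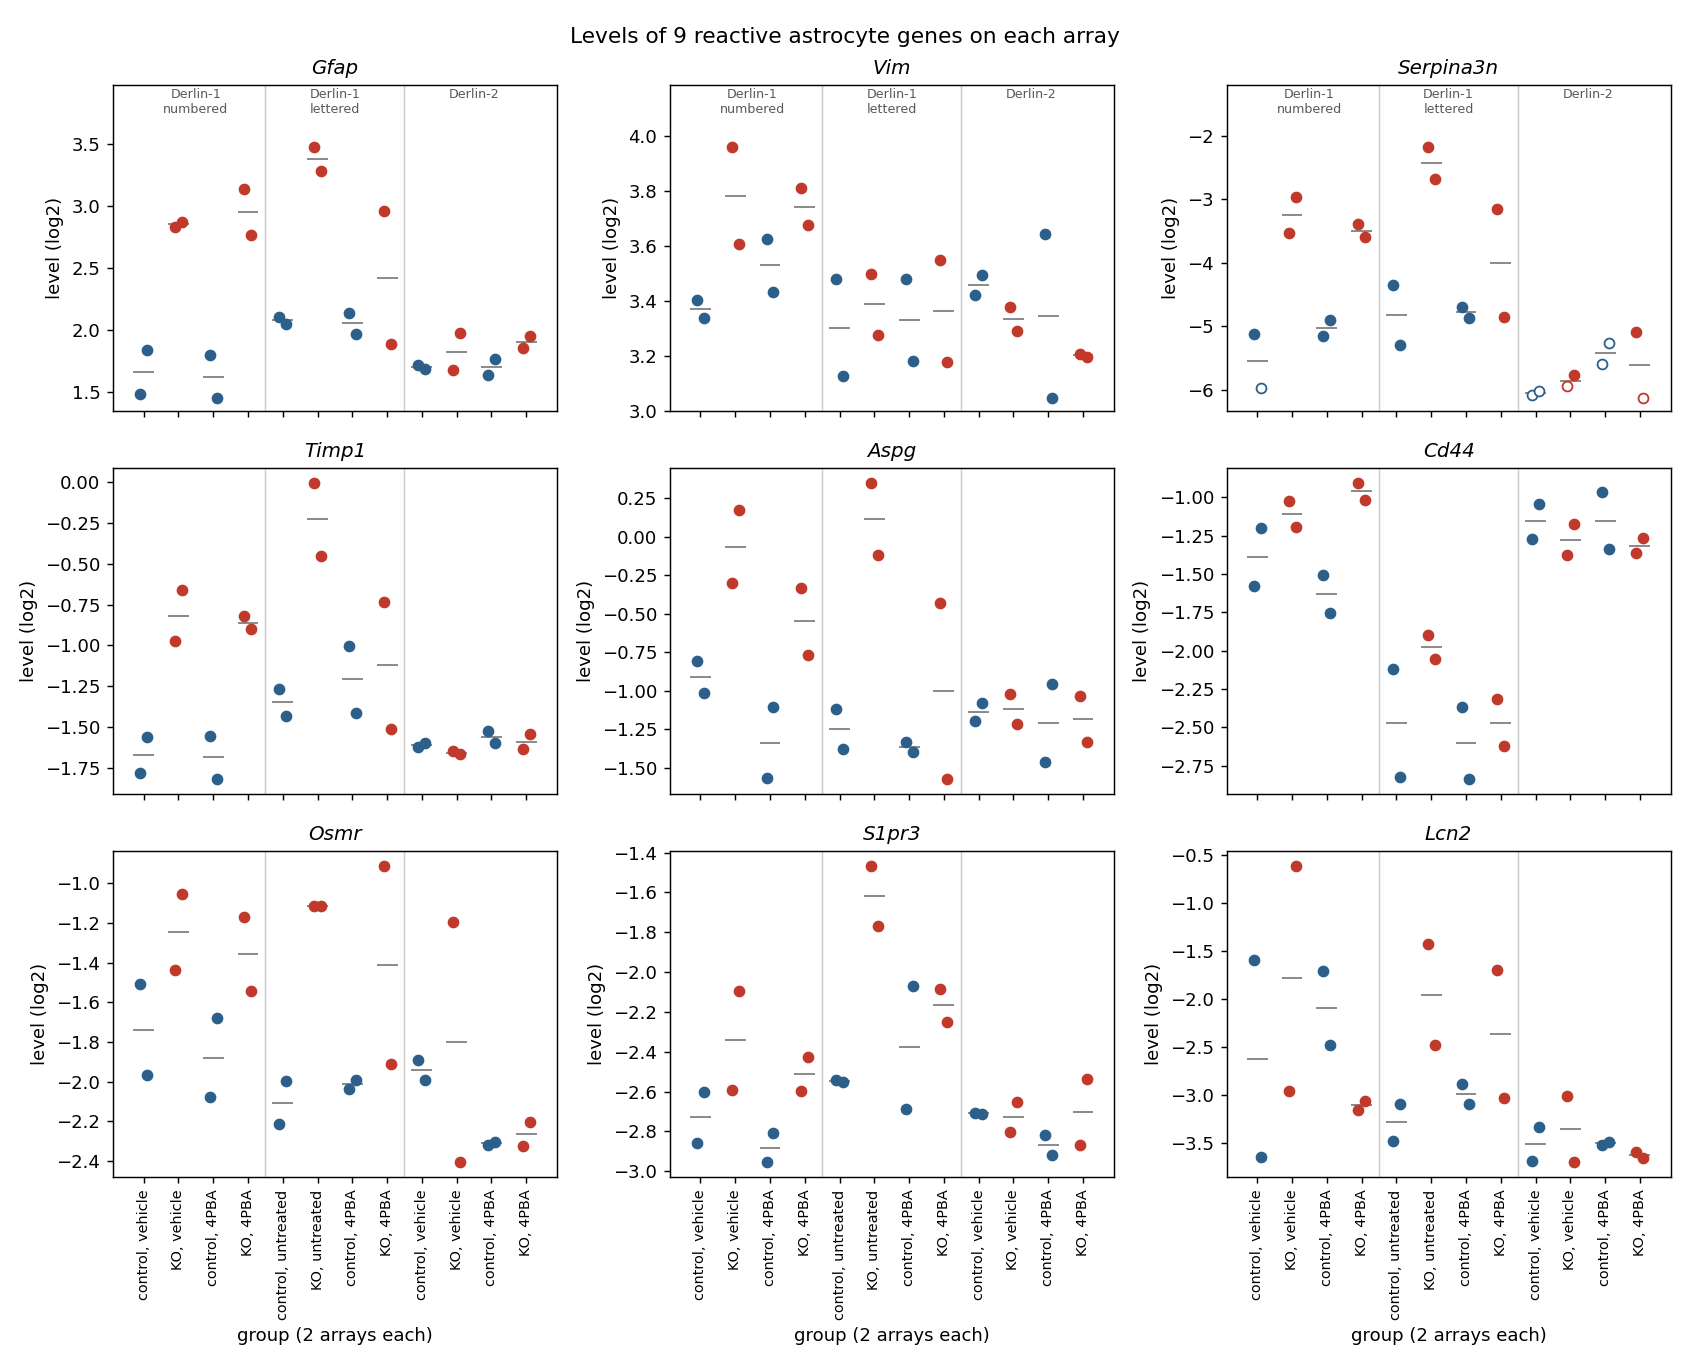
Level of the brightest tested probe of 9 reactive astrocyte genes (log2 intensity minus the log2 75th percentile of the array, vertical axis) on each of 24 arrays, by group of 2 (horizontal axis); filled points were well above background, open points were not, bars are group means, red is KO and blue is control. For Gfap, Derlin-1 KO arrays lie between 2.76 and 3.47 except for 1 array of the lettered 4PBA group at 1.88, and Derlin-2 KO arrays lie between 1.67 and 1.98.

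Without 4PBA, 5 of the 9 tested genes were higher in Derlin-1 KO cerebellum than in controls: Gfap, Serpina3n, Timp1, Aspg and S1pr3. These 5 were called at an adjusted p under 0.05 (limma, Benjamini-Hochberg over all probes), as were 3.55% of all 16935 genes in that direction. All 9 genes had positive log2 fold changes, with a median of 0.99 against -0.01 over all genes, and of 0.65 without KO vehicle 2. By probe, 6 of 12 were called, and 7 of 12 had all 4 KO arrays above all 4 control arrays, beside 2.53% and 3.96% of all probes.

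Gfap, the intermediate filament protein of astrocytes, had levels of 1.48, 1.84, 2.11 and 2.05 on the control arrays and of 2.83, 2.87, 3.47 and 3.28 on the KO arrays (probe A_52_P52303, numbered replicates 1 and 2 and then lettered a and b). Every KO array was higher than every control array. The KO mean was 2.38-fold that of controls (log2 fold change 1.25 ± 0.18 SE, n = 4 arrays each, adjusted p = 0.00496 by limma). A second probe, A_55_P2157250, read 0.19, 0.28, 1.13 and 0.91 in controls and 1.60, 1.95, 2.48 and 2.33 in KO, again without overlap (log2 fold change 1.46 ± 0.22 SE, limma adjusted p = 0.00513). After each slide's mean was taken away the 2 probes followed each other over the 24 arrays with r = 0.98. Vim, the intermediate filament protein that pairs with GFAP in reactive astrocytes and is also made by endothelial and other cells, read 3.40, 3.34, 3.48 and 3.12 in controls and 3.96, 3.60, 3.50 and 3.27 in KO. Its groups overlapped through the lettered series and it was not called (log2 fold change 0.25, 95% interval -0.05 to 0.55, limma adjusted p = 0.347).

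Both genes for secreted protease inhibitors were higher. Serpina3n, an inhibitor of serine proteases, had control levels of -5.11, -5.97, -4.36 and -5.29 and KO levels of -3.53, -2.96, -2.18 and -2.69. The groups did not overlap, and the KO mean was 5.07-fold that of controls (log2 fold change 2.34 ± 0.34 SE, limma adjusted p = 0.00496). The probe was dim: 17 of 24 arrays read it well above background, among them 1 of 2 numbered control vehicle arrays and all others of these groups. The size of its change therefore depends on the background, and with normexp on the median spot signal its log2 fold change was 1.20, beside 1.22 for Gfap. Timp1, an inhibitor of matrix metalloproteinases, read -1.78, -1.56, -1.27 and -1.43 in controls and -0.97, -0.66, -0.003 and -0.45 in KO. The groups did not overlap, and the KO mean was 1.98-fold higher (log2 fold change 0.99 ± 0.16 SE, limma adjusted p = 0.00554).

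Of the remaining secreted protein and the enzymes, Aspg alone was called. Aspg, an asparaginase, read -0.81, -1.01, -1.12 and -1.38 in controls and -0.30, 0.17, 0.35 and -0.12 in KO, with no overlap (2.15-fold, log2 fold change 1.105 ± 0.22 SE, limma adjusted p = 0.0152). Lcn2, a lipocalin that binds iron-carrying siderophores, read -1.59, -3.65, -3.48 and -3.09 in controls and -2.96, -0.61, -1.43 and -2.48 in KO with its brighter probe, A_55_P2070869. Control vehicle 1 lay above KO vehicle 1 and KO b, so the groups overlapped, and the gene was not called (log2 fold change 1.09 ± 0.51 SE, limma adjusted p = 0.246). The other Lcn2 probe, A_51_P510156, was well above background on 7 of 24 arrays. It entered the test only through the lettered untreated KO group, the 1 group with both arrays above background, so its change there was fixed by the filter and is not given. Steap4, a metalloreductase of the plasma membrane, was not well above background on any of the 24 arrays and has no fold change here.

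Among the cell surface receptors, only S1pr3 was called. S1pr3, a receptor for sphingosine 1-phosphate, read -2.86, -2.60, -2.54 and -2.55 in controls and -2.59, -2.09, -1.46 and -1.77 in KO. KO vehicle 1 lay within the controls, and the mean was 1.58-fold higher (log2 fold change 0.66 ± 0.14 SE, limma adjusted p = 0.0198). Osmr, the receptor for oncostatin M, read -1.51, -1.97, -2.21 and -2.0 in controls and -1.44, -1.05, -1.11 and -1.12 in KO. Its KO arrays all lay above its controls, narrowly between KO vehicle 1 and control vehicle 1, and it was not called (log2 fold change 0.74, 95% interval 0.22 to 1.26, limma adjusted p = 0.0968). Cd44, the hyaluronan receptor, was not called by either tested probe: log2 fold changes were 0.39 ± 0.16 SE (A_55_P2912261, limma adjusted p = 0.184) and 0.54 ± 0.18 SE (A_55_P2166501, limma adjusted p = 0.096). The second of these, at -4.59, -4.58, -4.36 and -4.78 in controls and -4.21, -4.13, -3.82 and -4.00 in KO, did not overlap between the groups.

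The calls differed in how far they rested on single arrays. Gfap, Serpina3n and Timp1 were called in all 24 fits that left out 1 array, Aspg in 21 and S1pr3 in 20. S1pr3 and Aspg both lost their call without KO vehicle 2 (adjusted p = 0.0861 and 0.0675 by limma) and without KO a (0.0995 and 0.0798), and 3 genes were then called, beside 1.39% and 0.957% of all genes called higher. Aspg also lost it without control vehicle 2 (limma adjusted p = 0.0553), and S1pr3 without control vehicle 1 (0.0632) or control a (0.0615). Without the 2 arrays that go against their labels, which are not part of these groups but enter the estimate of the spread, Osmr was called as well (limma adjusted p = 0.0067), beside 4.47% of all genes called higher. Within the lettered series alone, with 2 arrays a group, 3 genes were called, beside 0.622% of all probes: Gfap at 1.30, Serpina3n at 2.39 and Timp1 at 1.12 on the log2 scale. Within the numbered series alone limma called 0 of 9 genes (4 of 9 had an unadjusted p under 0.05, and 9 of all probes, 0.0236%, were called), with log2 fold changes of 1.19, 2.30 and 0.85 for the same genes. No gene's fold change was called as different between the lettered and numbered series (0 of 9 by limma, 0 at an unadjusted p under 0.05, beside 0.0059% of all genes), and 8 of 9 were larger in the lettered series, by a median of 0.27 that was 0.04 without KO a and 0.49 without KO b.

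**Figure D2:**
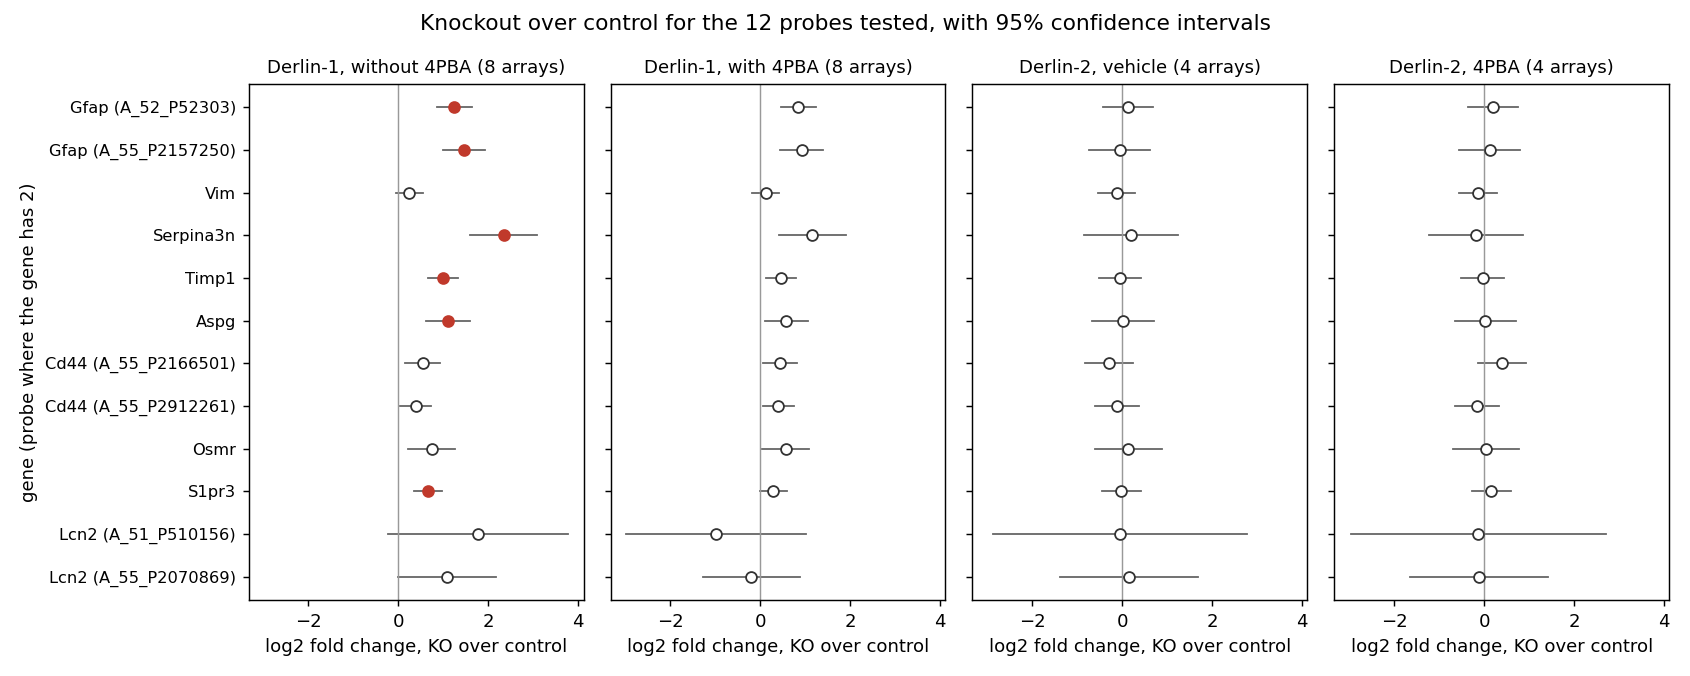
Log2 fold change (KO minus control, horizontal axis) of the 12 tested probes of 9 reactive astrocyte genes in 4 comparisons: Derlin-1 without and with 4PBA, and Derlin-2 with vehicle and with 4PBA. Bars are 95% intervals and filled points have an adjusted p under 0.05; only the comparison of Derlin-1 KO without 4PBA holds filled points, 6 of 12.

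With 4PBA, 0 of 9 genes were called between Derlin-1 KO and control arrays, where 0.0472% of all genes were (limma; 6 of 9 had an unadjusted p under 0.05). The log2 fold changes were 0.85 for Gfap (limma adjusted p = 0.15), 1.16 for Serpina3n (0.285), 0.58 for Aspg (0.408) and 0.46 for Timp1 (0.353), and 8 of 9 genes were positive with a median of 0.46. Gfap read 1.80, 1.45, 2.14 and 1.97 in controls and 3.14, 2.76, 2.96 and 1.88 in KO, so that the array with the label Derlin-1 KO 4PBA b lay among the controls, below both on its own slide, and the other 3 above them. Serpina3n read -5.16, -4.90, -4.69 and -4.87 in controls and -3.39, -3.60, -3.15 and -4.85 in KO, with that array again among the controls. Timp1 read -1.55, -1.82, -1.0 and -1.41 in controls and -0.82, -0.90, -0.73 and -1.51 in KO, the same pattern. KO 4PBA b was the lowest of the 4 KO arrays for Gfap, Serpina3n and Timp1, so leaving it out raises their KO effect by that choice. The calls without it therefore do not test a KO effect with 4PBA on their own. Without the array with the label Derlin-1 KO 4PBA b, 4 genes were called, as were 4.1% of all genes: Gfap (log2 fold change 1.12, limma adjusted p = 0.000587), Serpina3n (1.58, 0.0132), Timp1 (0.65, 0.0213) and Aspg (0.86, 0.0288). Without both arrays that go against their labels 5 were called, with Osmr as the addition (limma adjusted p = 0.014), beside 3.56% of all genes. Cd44 probe A_55_P2166501 was the only tested probe of these genes whose 4 KO arrays with 4PBA all lay above the 4 controls (0.527% of all probes did), at -4.13, -4.11, -3.97 and -4.27 against -4.74, -4.35, -4.40 and -4.71. It was also the only one without overlap between all 8 KO and all 8 control arrays of the Derlin-1 line, which 0.0787% of all probes reached. Lcn2 went the other way in the numbered series, where its brighter probe was 1.02 lower in KO with 4PBA on the log2 scale.

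Set against the 4 controls of its own slide, each KO array could be read on its own. In the numbered Derlin-1 series 8 of 9 genes exceeded all 4 controls on KO vehicle 1 (25.7% of all genes did), 8 on KO vehicle 2 (28.3%), 8 on KO 4PBA 1 (24%) and 7 on KO 4PBA 2 (21%). In the lettered series 9 did on KO a (28.3%), 8 on KO b (23.4%) and 7 on KO 4PBA a (23%). On the array with the label Derlin-1 KO 4PBA b only Osmr did (12.4% of all genes), and 3 of the 9 lay below all 4 controls, as did 18.8% of all genes. On the other 7 Derlin-1 KO arrays 0 of 9 lay below, and on the Derlin-2 KO arrays 2 and 3 of 8 did with vehicle (14.1% and 26.1% of all genes) and 3 and 0 with 4PBA (33.9% and 28.1%). In the Derlin-2 line Serpina3n is left out, since no control array read it well above background. Of the other 8 genes 2 exceeded the controls on each KO array with vehicle (23.4% and 24.8% of all genes did), 1 on KO 4PBA 1 (17.5%) and 2 on KO 4PBA 2 (15.6%). The mean over the 9 genes minus the controls was 0.51 to 1.27 on the first 7 arrays and -0.05 on Derlin-1 KO 4PBA b, and over the 8 genes it was -0.07 to 0.15 on the Derlin-2 KO arrays.

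**Figure D3:**
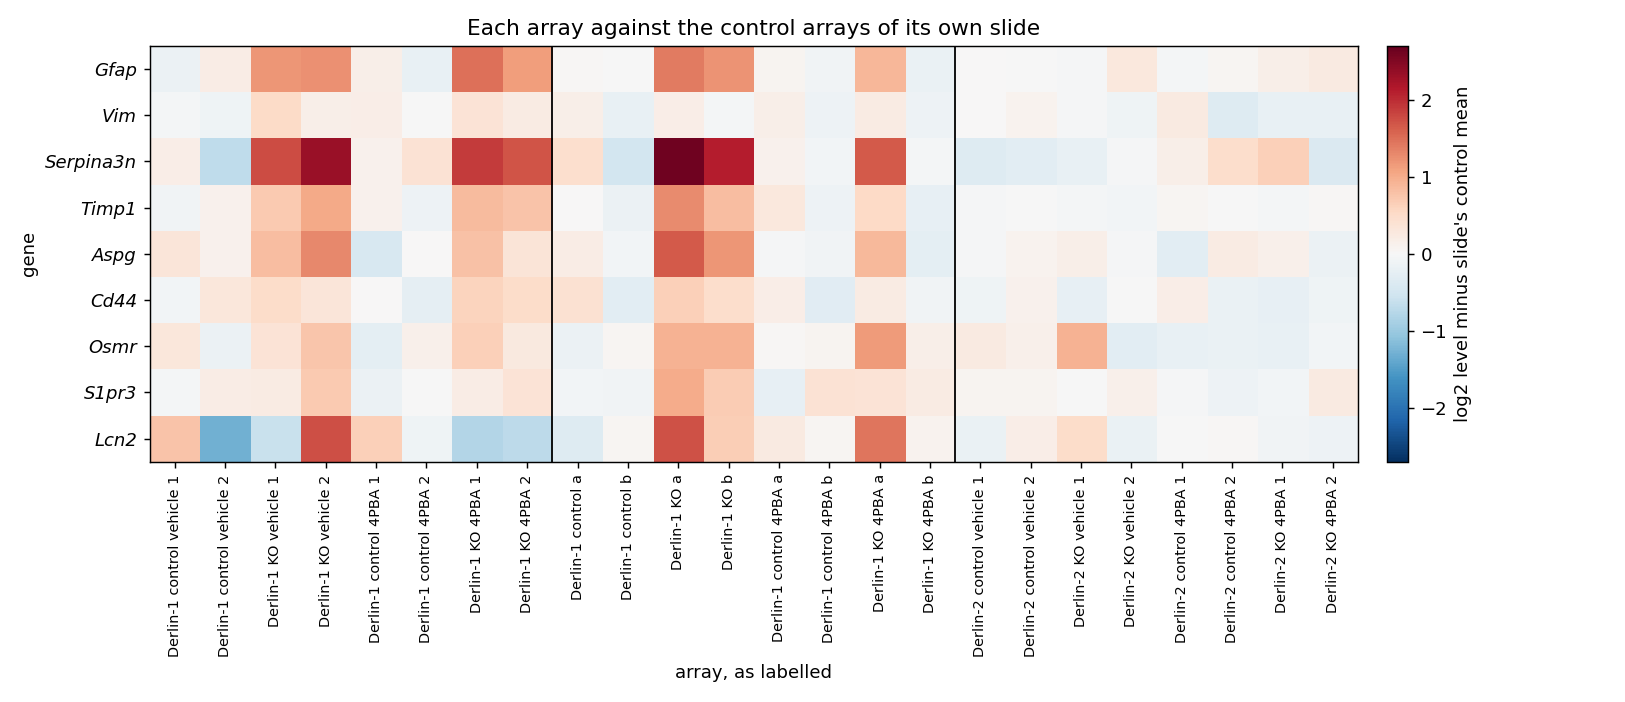
Level of 9 reactive astrocyte genes (rows) on 24 arrays (columns) minus the mean of the 4 controls on the same slide, on the log2 scale given by the colour bar. The Derlin-1 KO arrays other than KO 4PBA b average 0.51 to 1.27 over the 9 genes, and the Derlin-2 KO arrays -0.06 to 0.11, where Serpina3n was not well above background on the controls.

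Whether 4PBA changed these genes was asked within each genotype. In Derlin-1 KO mice 0 of 9 genes were called between 4PBA and none (limma; 0.0354% of all genes were, and 5 of 9 had an unadjusted p under 0.05), and all 9 had negative log2 fold changes with a median of -0.43. Aspg read -0.33, -0.77, -0.43 and -1.57 with 4PBA and -0.30, 0.17, 0.35 and -0.12 without (log2 fold change -0.80, limma adjusted p = 0.635). Gfap was at -0.43 (limma adjusted p = 0.918) and Serpina3n at -0.91 (0.904). Without the array with the label Derlin-1 KO 4PBA b the values were -0.51 for Aspg, -0.16 for Gfap and -0.48 for Serpina3n, and the median was -0.28. Without KO 4PBA a, which leaves that array as the only lettered KO array with 4PBA, Aspg and Gfap were called lower and the median was -0.66, and 0.655% of all genes were called in that fit. The KO effect with 4PBA minus that without was called for 0 of 9 genes (0.0177% of all genes; 2 of 9 at an unadjusted p under 0.05 by limma), with a median of -0.40, of -0.24 without KO 4PBA b and of -0.67 without KO 4PBA a. In Derlin-1 controls 4PBA was called for 0 of 9 genes as well (limma; 0.0295% of all genes were), with a median of 0.01 and 0 at an unadjusted p under 0.05.

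In the Derlin-2 line 0 of 9 genes were called between KO and control arrays, with vehicle or with 4PBA, where 0.106% and 0.136% of all genes were (limma; 0 of 9 at an unadjusted p under 0.05 in either). With vehicle Gfap read 1.72 and 1.68 in controls and 1.67 and 1.98 in KO, and with 4PBA 1.64 and 1.76 in controls and 1.86 and 1.95 in KO. The groups overlapped with vehicle and did not with 4PBA, where 2 KO arrays above 2 controls were seen for 16% of all probes. The log2 fold change was 0.12 with vehicle, with a 95% interval of -0.43 to 0.68, and 0.20 with 4PBA. The second probe, A_55_P2157250, was at -0.06 with vehicle (0.42 and 0.23 in controls, 0.19 and 0.35 in KO) and at 0.12 with 4PBA (0.5254 and 0.43 in controls, 0.5251 and 0.67 in KO), and its groups overlapped in both. Timp1 kept to a narrow band, from -1.67 to -1.53 over all 8 arrays of the line. With vehicle its KO arrays, at -1.65 and -1.67, lay just below its controls, at -1.62 and -1.60, and its interval ran from -0.52 to 0.43. Vim was the only other tested probe of these genes with KO below control without overlap with vehicle (2 of 12, beside 23.6% of all probes), and Serpina3n the only one above (1 of 12, beside 22.8%). With 4PBA 1 of 12 lay above, Gfap, and 1 below, Lcn2 (18.1% of all probes). Serpina3n stood well above background on no Derlin-2 control array and on only 1 of 2 KO arrays in each group, so no fold is given. Over the other 8 genes the median log2 fold change was 0.0005 with vehicle and -0.0014 with 4PBA, and 4 of 8 were positive in each. Without the array with the label Derlin-2 KO vehicle 1, Gfap was at 0.27 and Osmr at -0.46 in place of 0.14, and 0 were called. Between 4PBA and vehicle 0 of 9 were called in Derlin-2 controls (0.13% of all genes) and 0 in Derlin-2 KO (0.136%), and 0 for the difference of the KO effects (0.0709%), with 0 at an unadjusted p under 0.05 in each. Without the 2 arrays that go against their labels 0 were called between 4PBA and vehicle in Derlin-2 KO as well, with Gfap at -0.07 and Timp1 at 0.08, and 0 for the difference of the KO effects, with Timp1 at 0.03.

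The KO effects of the lines were also compared directly, without 4PBA. The Derlin-1 effect exceeded the Derlin-2 effect in 8 of 8 genes, by a median of 0.80, and 0 were called (limma; 0.065% of all genes were, and 4 of 8 had an unadjusted p under 0.05). Serpina3n is left out of this count, since no Derlin-2 control array read it well above background. The differences were 1.12 for Gfap (limma adjusted p = 0.230), 1.04 for Timp1 (0.203), 1.08 for Aspg (0.331) and 0.68 for S1pr3 (0.337). Leaving out Derlin-1 KO 4PBA a or KO 4PBA b, which are not in these groups, changes only the estimate of the spread and not these differences. These arrays lay far apart (SD 0.76 for Gfap and 0.55 for Timp1), so that estimate falls for these genes without either of them. Calls gained in that way were not read as a difference between the lines. Without both arrays that go against their labels, which leaves 1 Derlin-2 KO array with vehicle, Timp1 was at 1.05 (limma adjusted p = 0.0881), Aspg at 1.18 (0.163), S1pr3 at 0.60 (0.489) and Osmr at 1.21 in place of 0.60 (0.0663), and none of them was called. Gfap was then at 0.97 with A_52_P52303 and not called (limma adjusted p = 0.0786), while its second probe, A_55_P2157250, was at 1.44 and called (0.0206).

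The group means of Gfap (probe A_52_P52303, n = 2 arrays a group) ran from 3.38 ± 0.14 (SD) in lettered Derlin-1 KO without 4PBA through 2.95 ± 0.27 and 2.85 ± 0.03 in numbered Derlin-1 KO with 4PBA and with vehicle to 2.42 ± 0.76 in lettered Derlin-1 KO with 4PBA. The last of these means holds the array with the label Derlin-1 KO 4PBA b, and without it that group is 1 array at 2.96, in second place beside the numbered group. The 8 groups below these, from 2.08 down to 1.62, comprised every control group and both Derlin-2 KO groups. Neighbours in this order differed by less than the larger SD of the pair, except between the first and second places and between the sixth and seventh, the lettered Derlin-1 controls and the Derlin-2 KO arrays with 4PBA. The lettered Derlin-1 controls stood above the other controls: the 4 arrays averaged 2.06 ± 0.07 (SD), against 1.64 ± 0.21 in the numbered Derlin-1 and 1.70 ± 0.05 in the Derlin-2 controls. Serpina3n, Timp1 and Aspg began with the same group, lettered Derlin-1 KO without 4PBA, at -2.44 ± 0.36, -0.23 ± 0.32 and 0.12 ± 0.33. Cd44 probe A_55_P2912261 differed between slides more than between genotypes, with control means of -1.51 ± 0.23, -1.15 ± 0.18 and -2.54 ± 0.35 in the numbered Derlin-1, Derlin-2 and lettered Derlin-1 series.

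Over the 24 arrays, with each slide's mean taken away, Gfap and Timp1 followed each other at r = 0.95, Aspg and Timp1 at 0.87, Gfap and Aspg at 0.84 and Cd44 and Timp1 at 0.81. Vim followed Gfap at 0.49 and Lcn2 followed Gfap at 0.25. These correlations are descriptions over arrays that share slides and group differences. Without the 2 arrays that go against their labels they were 0.95, 0.86, 0.84, 0.80, 0.47 and 0.24 in the same order. Among 14265 other genes, those most like Gfap were C1qa (0.97), Gm31740 (0.97) and Tyrobp (0.96), and those most like Timp1 were Plek (0.96), C1qb (0.95) and C1qc (0.95). C1qa, C1qb, C1qc and Tyrobp are expressed by microglia. For Vim they were Cnn3 (0.85), Aqp4 (0.84), the water channel of astrocytes, and Il13ra1 (0.83), for Lcn2 Scgb3a1 (0.78), Lrg1 (0.78) and Rnf31 (0.77), and for Aspg Nbl1 (0.93), Pgm3 (0.93) and Capg (0.93). For the receptors they were Tmem158 (0.89), Amz1 (0.88) and Eif2ak3 (0.88) for Cd44, Slco2b1 (0.86), Dph5 (0.85) and Fblim1 (0.85) for Osmr, and Diaph3 (0.88), Sspo (0.86) and Acot2 (0.84) for S1pr3. Serpina3n was left out of this comparison, which used genes well above background on all 24 arrays.

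Other genes of the reactive state and of the signals around it were read from lists in the comparison of Derlin-1 KO without 4PBA, where 3.55% of all genes were called higher. Of 3 further pan-reactive genes 1 was called: Cxcl10, a chemokine, at 3.51 ± 0.65 SE on the log2 scale (limma adjusted p = 0.0108), a call that was lost without KO a. It read -4.78, -4.18, -3.78 and -5.13 in controls and -1.09, -1.13, -0.25 and -1.37 in KO, with no overlap, and on the array with the label Derlin-1 KO 4PBA b it was at -4.44. Of 12 tested genes described after neuroinflammation 3 were called higher, Psmb8 at 1.14, a subunit of the immunoproteasome, Fkbp5 at 1.05, a glucocorticoid-induced co-chaperone, and Fbln5 at 0.86, a matrix protein. All 12 were positive with a median of 0.42, but 0 were called without KO vehicle 2 or without KO a, where 1.39% and 0.957% of all genes were called higher. Without KO b 8 were (5.3% of all genes), and without the 2 arrays that go against their labels 6 were (4.47%). Of 9 tested genes described after ischaemia 2 were called, Cd14 at 1.0, a receptor for lipopolysaccharide that myeloid cells also make, and Cd109 at 0.88, and the median was 0.14. Cd14 was called in all 24 fits that left out 1 array and Cd109 in 6, and Cd109 was well above background on 16 of 24 arrays. With all 24 arrays the only call among the genes of these lists in the other comparisons was Hspb1, a small heat shock protein of the pan-reactive list. It was lower with 4PBA, at 1.99 and 2.14, than with vehicle, at 2.95 and 3.30, in Derlin-2 KO (log2 fold change -1.06, limma adjusted p = 0.0136). Without the 2 arrays that go against their labels, of which 1 gave the 2.95, Hspb1 was at -1.23 (limma adjusted p = 0.0195). Without them Cxcl10 (3.56), Gbp2 (0.78), Psmb8 (0.99) and Cd14 (0.71) were called higher in Derlin-1 KO with 4PBA, beside 3.56% of all genes in either direction, and Cd14 for the difference between the lines (1.03, beside 1% of all genes).

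The ligands of the interleukin-6 family gave 0 called of 5 tested, and the receptors 1 of 6: Il6ra at 0.75 (limma adjusted p = 0.0169). Stat3, the transcription factor these receptors act through, named here for its place in the pathway after its value was seen, was at 0.28 (limma adjusted p = 0.0912), and Socs3, its feedback inhibitor, at 0.51 (0.243). Of 3 tested microglial signals that induce reactivity 1 was called, C1qa at 1.43 (limma adjusted p = 0.00691). Of 14 tested genes for partners of the 10 proteins 1 was called, Spp1 at 1.04, a ligand of CD44 (limma adjusted p = 0.0147), and 0 were called without control vehicle 1 or without KO vehicle 2 (2.04% and 1.39% of all genes were called higher). Of the 18 homeostatic astrocyte and Bergmann glia markers 0 were called, in every fit that left out 1 array as well, with a median of 0.10. Their summed linear level, in units of the array's 75th percentile, was 734 and 776 on the KO arrays against 754 and 797 on the controls of the numbered series without 4PBA. In the lettered series it was 464 and 478 against 569 and 505, below both controls, so that the sums there lay on the other side from the positive median. Without the 2 arrays that go against their labels, which leaves 1 Derlin-2 KO array with vehicle, Atp1b2 was at -0.65 for the difference between the lines. With 4PBA in Derlin-2 KO this gene, a subunit of the sodium pump, was then at -0.60.

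Of 12 microglial markers 9 were called higher in Derlin-1 KO without 4PBA and 11 were positive, with a median of 1.12, and 6 to 9 were called when 1 array was left out, the 6 without KO a. Trem2 was at 1.77, Aif1 at 1.49, C1qb at 1.44 and C1qc at 1.43, each called in all 24 fits that left out 1 array. Their summed linear level was 93.0 and 95.1 on the KO arrays of the numbered series against 84.1 and 79.0 on its controls, and 76.5 and 75.01 against 60.8 and 61.7 in the lettered series. Each Derlin-1 KO array without 4PBA so lay above both controls of its slide. The Derlin-2 KO arrays with vehicle, at 73.6 (the array that goes against its label) and 90.5 against 69.1 and 67.0, did so too, while by gene 0 of 12 were called there and the median log2 fold change was -0.14. Of the 12 markers 5 were called for the difference between the lines without the 2 arrays that go against their labels, C1qb, C1qc, Trem2, Aif1 and C1qa, at 1.57 to 2.10 (beside 1% of all genes). With 4PBA the Derlin-1 sums were 90.6 and 84.3 against 70.8 and 85.8, and 71.9 and 61.15 against 65.5 and 61.8, and the groups overlapped in both series. With 4PBA 0 of 12 were called, beside 0.0472% of all genes, and 9 without the array with the label Derlin-1 KO 4PBA b, beside 4.1%. Markers of endothelium (0 of 8 called), meninges (0 of 7), choroid plexus (0 of 5) and neutrophils or blood (0 of 5) did not pass the test. On the Derlin-1 arrays without 4PBA choroid plexus sums ranged from 2.0 to 235 on KO and from 9.0 to 142 on control arrays, and neutrophil and blood sums from 89.6 to 281 and from 152 to 512. With 4PBA choroid plexus sums ran from 54.9 to 182 on KO and from 14.4 to 187 on control arrays, and neutrophil and blood sums from 179.5 to 543 and from 121 to 290.1. Without the 2 arrays that go against their labels 2 meningeal genes, Col1a2 and Ogn, were called higher both without and with 4PBA, beside 4.47% and 2.18% of all genes. Meningeal sums were 26.9 and 28.6 on the KO arrays against 20.1 and 21.4 on the controls of the numbered series without 4PBA, and 23.75 and 24.03 against 24.6 and 22.1 in the lettered series. With 4PBA they were 27.5 and 25.1 against 20.3 and 21.5, and 25.8 and 18.1 against 23.2 and 21.2. The numbered KO arrays all lay above their controls, and the lettered ones overlapped with theirs. The part of these cell types in the change of the reactive astrocyte genes was not tested.

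**Figure D4:**
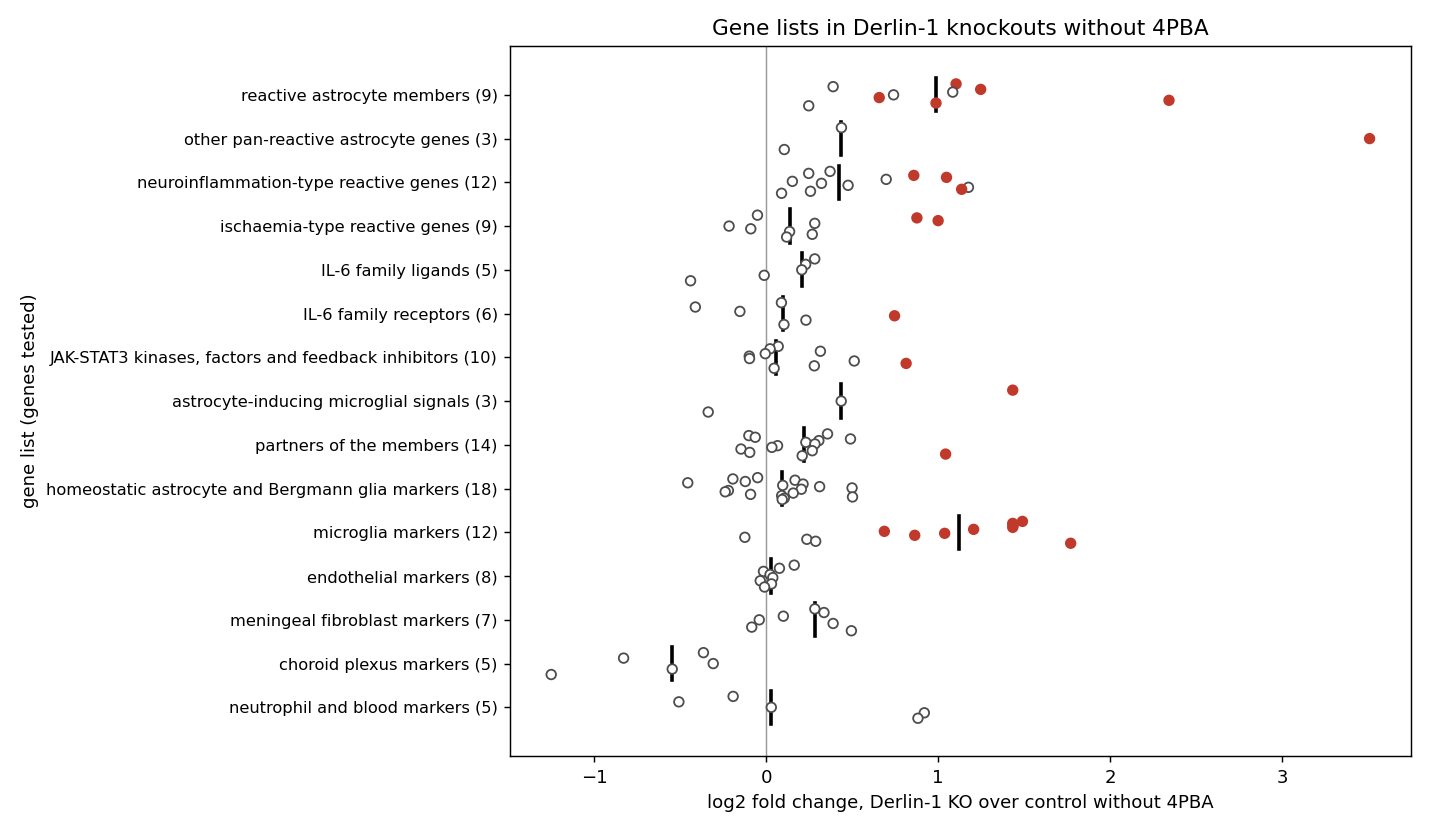
Log2 fold change of Derlin-1 KO minus control without 4PBA (horizontal axis) for each tested gene of the reactive astrocyte genes and of the comparison lists; filled points have an adjusted p under 0.05 and black lines are medians. The reactive astrocyte genes have a median of 0.99 and the microglial markers of 1.12, against 0.10 for homeostatic astrocyte and Bergmann glia markers.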

How the data were processed

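Cy3-labelled RNA of 24 samples was read on Agilent arrays with Feature Extraction 10.7.1.1, per the file headers, which name build mm9. The deposited processed signal is a linear intensity that the authors' scanner software had corrected for background, per the file headers; no normalization between arrays is recorded there. The authors' series table held the same intensity values (largest log2 difference 1.74e-06 over 56305 probes). The 10 genes and all lists were chosen with earlier results of these data known.

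Control spots were left out, flagged outlier spots (52 to 637 of 59305 per array) were set to missing, and repeated spots were averaged on the log2 scale. The array's 75th percentile (890 to 1169) was subtracted as log2. Probes were tested if they stood well above background on each of the 2 arrays of some group (38115 probes). Symbols came from the RefSeq gene list of GRCm38.p6 through transcript names (32994 of 56605 probes). All 24 arrays were fitted together with group means (limma 3.58.1, R 4.3.3), with 12 residual and 1.91 prior degrees of freedom. P-values were two-sided, adjusted by Benjamini-Hochberg over every probe, and called under 0.05. Derlin-1 comparisons were averaged equally over both series. A list used the brightest probe per gene. Named were all 10 genes, at most 4 called genes per list, and the 3 genes most like each member that was well above background on all 24 arrays. Where no array of a group stood well above background, the text gives no fold. The model was tested on simulated data. Genotype followed the columns of each slide and 4PBA its rows, so position and group cannot be told apart. The labels do not say whether replicate numbers pair the samples, and the main fit did not pair them. A result of the JAK-STAT3 list is not reported here.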

Additional observations from a re-analysis of the deposited data

How the results depend on the processing

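No direction of a called result reversed under any alternative. Of the 9 genes, 5 were called in Derlin-1 KO without 4PBA under the other normalizations, background correction, probe choices and weights tried, 4 with only probes well above background on all arrays (Serpina3n is then not tested), 6 without the 2 arrays that go against their labels, but 0 in the numbered series alone, 3 in the lettered series alone and 3 with only that line in the fit. Leaving out 1 array gave 3 to 6. With 4PBA, 0 became 5 without those 2 arrays, an alternative chosen after the data were seen, and 0 to 4 when 1 array was left out (4 without KO 4PBA b). For 4PBA in Derlin-1 KO the range was 0 to 2, for the difference between the lines 0 to 2 (2 without KO 4PBA a or without KO 4PBA b), and for the other comparisons 0 to 0. With the replicate number as a block 5 genes were called without 4PBA, and Cd44 (A_55_P2166501) was called as well by probe (limma adjusted p = 0.045). The block changed no other call, and deviations of same-numbered arrays correlated at -0.21 to 0.65. Over all probes, Derlin-1 KO without 4PBA had 1938 calls, 9 with the numbered series alone and 237 with the lettered one, 318 with only that line, 1069 with no filter on dim probes, and 409 to 3343 with 1 array left out. Between Derlin-1 KO and controls with 4PBA all-probe calls went from 24 to 1 with probes well above background on all arrays and to 938 without the 2 arrays, and for 4PBA in Derlin-2 from 67 (controls) and 59 (KO) to 3950 and 5518 with no filter on dim probes. Dim probes limit Serpina3n and Steap4, and 1 probe each of Lcn2, Cd44 and Osmr.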
